A study of Mus musculus with 4 samples.

Results

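Fatty acid desaturases and elongases are membrane enzymes of the endoplasmic reticulum that reshape the fatty acids a cell makes or takes up. Stearoyl-CoA desaturases turn saturated fatty acids such as stearate into monounsaturated ones such as oleate, and the fatty acid desaturases Fads1 and Fads2 act in turn on essential polyunsaturated fatty acids. Elongation lengthens the chain in a cycle of condensation, reduction, dehydration and a second reduction, and the Elovl proteins carry out the condensation. In T cells these reactions supply membrane lipids for growth and division after activation. The set described here has 10 genes of the 23284 gene symbols in the deposited tables. Its members were listed by symbol, with earlier results of these data known. They are the desaturases Scd1, Scd2, Fads1 and Fads2, the elongases Elovl1, Elovl5, Elovl6 and Elovl7, and the reductases of the elongation cycle, Hsd17b12 and Tecr. Each symbol had a single entry.

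The genes were measured in 4 RNA libraries of CD4 T cells, the helper lineage, from mouse, with 2 libraries of CCR7loCD137hi cells and 2 of CCR7hiCD137lo cells. All cells came from spleens of the inbred strain BALB/c and had been cultured under Th1 conditions with interleukin-2 at 15 ng/ml and interleukin-12 at 10 ng/ml, for 4 days by one label and 5 days by another, before they were sorted by flow cytometry on both surface proteins. CCR7 responds to chemokines of lymph nodes, and CD137, the product of Tnfrsf9, appears on T cells after activation and costimulates them. The series addresses how acetyl-CoA carboxylase 1 and fatty acid synthesis bear on the memory potential of CD4 T cells, and these libraries compare the sorted populations. Age and sex of the mice are not given in the labels, nor is it said whether the libraries numbered 1 and 2 came from separate mice or cultures, so the p-values cover no more than the spread among these libraries, and that spread may be technical.

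Levels are in FPKM as deposited by the authors, fragment numbers scaled to transcript length and to the mapped fragments of a library. Estimated depth was 11600000 and 6330000 fragments in CCR7loCD137hi replicates 1 and 2, and 20700000 and 13000000 in CCR7hiCD137lo replicates 1 and 2. The libraries numbered 2 were thus the shallower ones in both populations. Both CCR7loCD137hi libraries were also shallower than both CCR7hiCD137lo libraries, so depth cannot be told apart from population, and its part was not tested. The sorting genes followed the labels, with Tnfrsf9 at 158 and 184 FPKM in CCR7loCD137hi against 0.961 and 6.25 FPKM in CCR7hiCD137lo, and Ccr7 at 39.6 and 38.2 FPKM against 93.4 and 118 FPKM. All 8 CD4 T cell markers were well above 1 FPKM, with Cd4 at 95.6 and 176 FPKM in CCR7loCD137hi and at 125 and 182 FPKM in CCR7hiCD137lo. All 6 myeloid and dendritic cell markers and all 3 adipocyte markers were under 1 FPKM in every library, with Csf1r and Plin1 at 0. Summed B cell markers stood at 4.44 and 0.529 FPKM in CCR7loCD137hi against 0.0917 and 0.145 FPKM in CCR7hiCD137lo, and summed CD8 T cell markers at 12.2 and 3.99 FPKM against 2.63 and 4.58 FPKM. Summed NK cell markers stood at 2.29 and 0.381 FPKM in CCR7loCD137hi and were listed at 0 in CCR7hiCD137lo. These 3 lists were highest in CCR7loCD137hi replicate 1, and their part in the results below was not tested.

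The stearoyl-CoA desaturase genes lie close together on chromosome 19 and resemble each other, which bears on how their reads are told apart. The coding sequences of Scd1 and Scd2 were 90.4% identical over 1068 aligned positions, with a longest identical run of 147 nt. The stretch where they are most alike has 0 differences over 120 nt, at coding positions 523 to 642 of Scd1 and 532 to 651 of Scd2, so a read from it cannot be assigned to either gene.
Scd1 and Scd2: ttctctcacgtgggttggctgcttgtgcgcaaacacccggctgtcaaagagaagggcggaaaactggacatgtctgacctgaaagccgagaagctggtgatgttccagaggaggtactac
The stretch where they are least alike, at coding positions 75 to 194 of Scd1 and 84 to 203 of Scd2, has 32 differences over 120 nt, shown in capitals.
Scd1: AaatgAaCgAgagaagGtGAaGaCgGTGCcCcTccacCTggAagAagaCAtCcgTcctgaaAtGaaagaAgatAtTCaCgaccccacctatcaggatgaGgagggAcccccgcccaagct
Scd2: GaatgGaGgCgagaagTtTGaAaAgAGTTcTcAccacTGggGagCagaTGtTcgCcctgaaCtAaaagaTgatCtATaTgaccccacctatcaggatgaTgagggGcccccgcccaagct
These are sequences of GENCODE transcripts on GRCm38 in the sense of each gene, the minus strand for Scd1 and the plus strand for Scd2. Over whole transcripts the overlap was small: 4.66% of the 50 nt windows of Scd1 and 4.01% of those of Scd2 occur in transcripts of other genes, foremost the other Scd genes. The share was 10.8% for Tecr, 4.59% for Elovl6 and 0.161% for Fads2, and 0 for the other 5 genes. Elovl1 shares exonic bases with Cdc20, a mitosis gene on the opposite strand that stood at 75.5 and 62.7 FPKM in CCR7loCD137hi and 77.9 and 71.9 FPKM in CCR7hiCD137lo. Elovl6 overlaps the gene Gm35986 on the opposite strand, and a Scd2 exon holds Mir5114 on the same strand. The sources used here do not say whether counting used strand, so reads of such overlaps cannot be told apart.

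Scd2 was by far the most abundant of the 10 genes. It stood at 276 and 420.5 FPKM in CCR7loCD137hi replicates 1 and 2 and at 199.9 and 373 FPKM in CCR7hiCD137lo replicates 1 and 2. Its mean over the 4 libraries exceeded that of 98.1% of the 10496 genes with a mean of at least 1 FPKM, the genes that were tested. Each population thus had a lower library numbered 1 and a higher one numbered 2, and the populations overlapped. Scd2 averaged 348 ± 102 FPKM in CCR7loCD137hi and 287 ± 123 FPKM in CCR7hiCD137lo (SD, n = 2 each). Mouse Scd2 (mm10 chromosome 19, 44293676 to 44306862, plus strand) is a stearoyl-CoA desaturase best known from brain and other tissues outside the liver. Its log2 fold change, of CCR7loCD137hi over CCR7hiCD137lo on log2(FPKM + 1), was 0.32 (SE 0.374, limma adjusted p = 0.865).

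Scd1 varied most from library to library. It stood at 36.2 and 70.5 FPKM in CCR7loCD137hi replicates 1 and 2 and at 12.99 and 44.3 FPKM in CCR7hiCD137lo replicates 1 and 2. The highest library was thus 5.43 times the lowest, and the higher CCR7hiCD137lo library lay above the lower CCR7loCD137hi library. Scd1 averaged 53.4 ± 24.3 FPKM in CCR7loCD137hi and 28.6 ± 22.1 FPKM in CCR7hiCD137lo (SD, n = 2 each). Scd1 (chromosome 19, 44394450 to 44407709, minus strand) is the main stearoyl-CoA desaturase of liver and fat, where insulin and dietary sugar induce it. Its log2 fold change of 1.04 (SE 0.654) was the largest in size of the 9 genes tested, with a 95% interval from −0.70 to 2.77, and it did not pass (limma adjusted p = 0.756). Without CCR7hiCD137lo replicate 1 it was 0.19, and without CCR7hiCD137lo replicate 2 it was 1.88.

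The desaturases of polyunsaturated fatty acids had unlike spreads over the libraries. Fads2, the enzyme of the entry step, stood at 47.6 and 67.2 FPKM in CCR7loCD137hi replicates 1 and 2 and at 32.2 and 63.3 FPKM in CCR7hiCD137lo replicates 1 and 2. Fads1, which acts after an elongation step, stood at 24.3 and 30.5 FPKM in CCR7loCD137hi and at 25.3 and 32.0 FPKM in CCR7hiCD137lo. Fads2 spanned a 2.09-fold range over the libraries and Fads1 a 1.32-fold range, and both were higher in the libraries numbered 2. Fads2 averaged 57.4 ± 13.9 FPKM in CCR7loCD137hi and 47.7 ± 22.0 FPKM in CCR7hiCD137lo (SD, n = 2 each). The log2 fold change was 0.32 for Fads2 (SE 0.374) and −0.06 for Fads1 (SE 0.191), with limma adjusted p = 0.865 and 0.958. Fads1 (10182888 to 10196872, plus strand) and Fads2 (10064164 to 10101503, minus strand) also lie on chromosome 19.

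**Figure D1:**
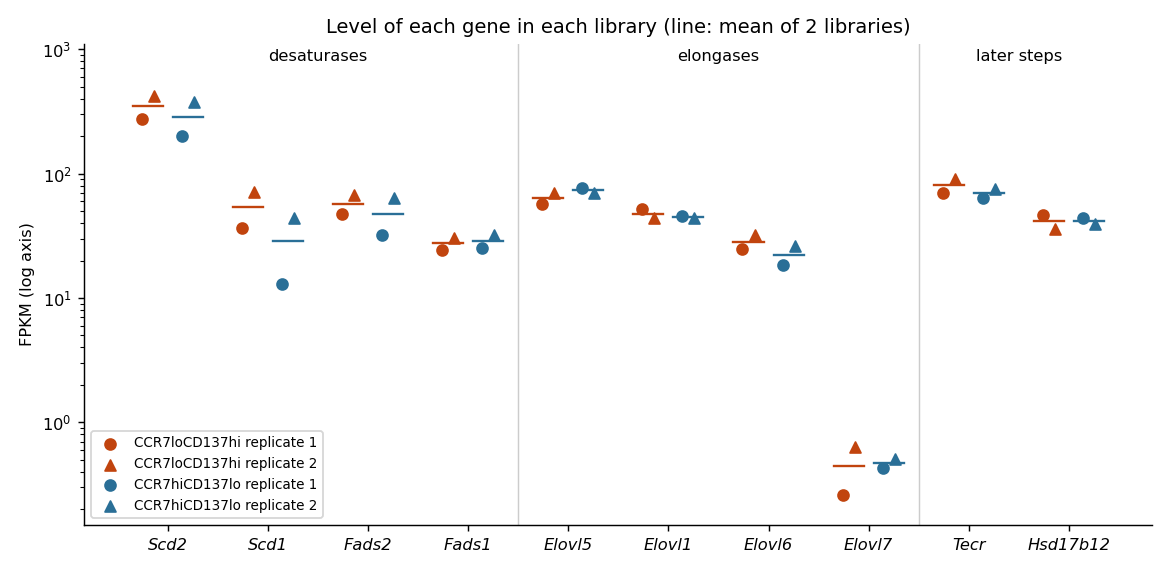
FPKM on a log axis of the 10 genes in each of the 4 libraries, with circles for replicate 1, triangles for replicate 2 and lines for the mean of the 2 libraries of a population, CCR7loCD137hi to the left of CCR7hiCD137lo. In the 4 desaturases and in Elovl6, Elovl7 and Tecr both triangles lie above both circles, and Elovl7 lies under 1 FPKM in every library.

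Among the elongases Elovl5, which lengthens polyunsaturated fatty acids, was the most abundant. It stood at 57.1 and 70.4 FPKM in CCR7loCD137hi replicates 1 and 2 and at 76.1 and 70.2 FPKM in CCR7hiCD137lo replicates 1 and 2. Only CCR7loCD137hi replicate 1 stood apart, below the other 3 libraries, and the log2 fold change was −0.20 (SE 0.153, limma adjusted p = 0.783). Elovl1, which makes saturated and monounsaturated very long chains for sphingolipids, stood at 51.6 and 43.6 FPKM in CCR7loCD137hi and at 45.5 and 44.1 FPKM in CCR7hiCD137lo. It had the narrowest range of the 10 genes, 1.18-fold, and its log2 fold change was 0.08 (SE 0.138), with a 95% interval from −0.29 to 0.45 (limma adjusted p = 0.907). Elovl5 lies on chromosome 9 (77917365 to 77984519, plus strand) and Elovl1 on chromosome 4 (118428093 to 118432916, plus strand).

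Elovl6, which lengthens palmitate to stearate and so supplies the stearoyl-CoA desaturases, stood at 24.7 and 31.9 FPKM in CCR7loCD137hi replicates 1 and 2 and at 18.4 and 26.3 FPKM in CCR7hiCD137lo replicates 1 and 2. Its populations overlapped by little, since the higher CCR7hiCD137lo library lay just above the lower CCR7loCD137hi library. The log2 fold change was 0.34 (SE 0.233, limma adjusted p = 0.762). Elovl6 lies on chromosome 3 (129532386 to 129638493, plus strand) and Elovl7 on chromosome 13 (108214404 to 108287107, plus strand). Elovl7, another elongase of saturated chains, was low, at 0.262 and 0.633 FPKM in CCR7loCD137hi and at 0.434 and 0.512 FPKM in CCR7hiCD137lo. These values rest on about 12, 15, 34 and 25 fragments in CCR7loCD137hi replicates 1 and 2 and CCR7hiCD137lo replicates 1 and 2, a counting error of 29.3%, 25.6%, 17.1% and 19.8%. It was the 1 gene of the set that did not reach the filter of 1 FPKM, so it was left out of the test. Its populations overlapped, and so few fragments limit what a comparison could show.

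Both reductases of the elongation cycle were well expressed in every library. Tecr, the enoyl-CoA reductase of the final step, stood at 70.4 and 90.6 FPKM in CCR7loCD137hi replicates 1 and 2 and at 63.9 and 75.2 FPKM in CCR7hiCD137lo replicates 1 and 2. Hsd17b12, the ketoacyl-CoA reductase of the step after condensation, stood at 46.8 and 36.1 FPKM in CCR7loCD137hi and at 43.9 and 39.0 FPKM in CCR7hiCD137lo. The populations overlapped for both genes, and Hsd17b12 was lower in the libraries numbered 2 while Tecr was higher in them. The log2 fold change was 0.20 for Tecr (SE 0.180) and −0.01 for Hsd17b12 (SE 0.176), with limma adjusted p = 0.817 and 0.993. Tecr lies on chromosome 8 (83571698 to 83594491, minus strand) and Hsd17b12 on chromosome 2 (94032697 to 94157909, minus strand).

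Per length, the order of mean levels was Scd2, Tecr, Elovl5, Fads2, Elovl1, Hsd17b12, Scd1, Fads1, Elovl6 and Elovl7. Scd2 lay above every other gene and Elovl7 below every other gene in each library. Between them, neighbours in this order overlapped in their range over the 4 libraries. Scd2 made up 71.9% and 71.4% of the summed FPKM of the 4 desaturases in CCR7loCD137hi replicates 1 and 2, and 73.9% and 72.8% in CCR7hiCD137lo replicates 1 and 2. That sum was 385 and 589 FPKM in CCR7loCD137hi and 270.3 and 513 FPKM in CCR7hiCD137lo, so it moved more with replicate number than with population. The summed FPKM of the 4 elongases hardly varied, at 134 and 147 FPKM in CCR7loCD137hi and 140.4 and 141 FPKM in CCR7hiCD137lo.

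**Figure D2:**
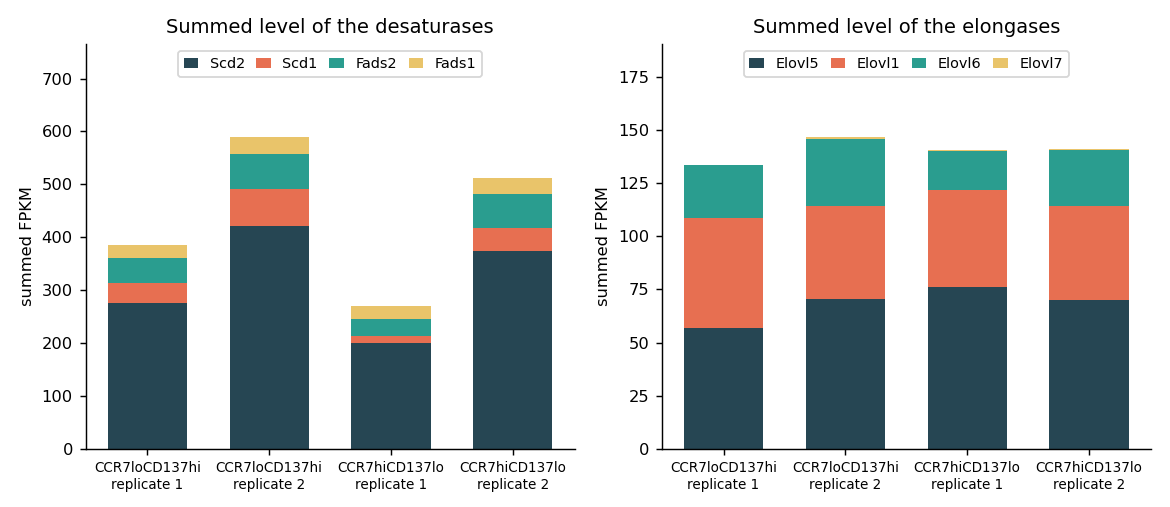
Summed FPKM of the 4 desaturases and of the 4 elongases in each library, as stacked bars by gene. The desaturase sum runs from 270.3 to 589 FPKM and is higher in the libraries numbered 2, while the elongase sum runs from 134 to 147 FPKM.

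The comparison of the populations over all genes gave no call among these genes. With limma's moderated test on log2(FPKM + 1), Benjamini-Hochberg adjusted over 10496 genes, 0 of the 9 genes tested passed 0.05, where 0.0572% of all genes tested were called, 0.0476% as higher in CCR7loCD137hi and 0.00953% as lower. At an unadjusted p under 0.05 the count was also 0 of 9, against 8.13% of all genes tested, 4.64% higher and 3.49% lower. Without CCR7hiCD137lo replicate 2 the log2 fold change was 1.88 for Scd1 and 0.80 for Fads2. Without CCR7hiCD137lo replicate 1 it was 0.19 for Scd1 and −0.16 for Fads2. Each of these fits leaves 1 library in a group and holds the replicate numbers unequally. With all 4 libraries, Scd1 was the 1 gene of the 9 with a log2 fold change of at least 1, where 2.76% of all genes tested were that much higher. For 0 of the 9 genes did the CCR7loCD137hi libraries lie wholly above the CCR7hiCD137lo libraries, against 16.6% of all genes, and for 0 did they lie wholly below, against 21.5%. The median log2 fold change was 0.20 over the 9 genes and −0.01 over all genes tested. With 2 libraries a group the intervals are wide, that of Scd2 running from −0.67 to 1.31, so the result does not show that the populations are alike. RNA of sorted bulk cells cannot tell fewer cells expressing a gene from less RNA per cell.

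Within each replicate number, 5 of the 9 genes tested stood higher in CCR7loCD137hi both times, against 33% of all genes tested. These were Scd1, Scd2, Fads2, Elovl6 and Tecr. Scd1 in CCR7loCD137hi was 2.79 times its level in CCR7hiCD137lo in the libraries numbered 1 and 1.59 times in those numbered 2. For Elovl6 the ratios were 1.34 and 1.21, for Scd2 1.38 and 1.13, and for Fads2 1.48 and 1.06. For Tecr they were 1.10 and 1.21, so Tecr alone of the 5 had its larger ratio in the libraries numbered 2. Fads1 was the 1 gene lower both times, at 0.964 and 0.954 times, against 35.9% of all genes tested. Elovl1, Elovl5 and Hsd17b12 had opposite signs in the numbers, as did the untested Elovl7. With a single library on each side, these ratios have no replicate check of their own.

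**Figure D3:**
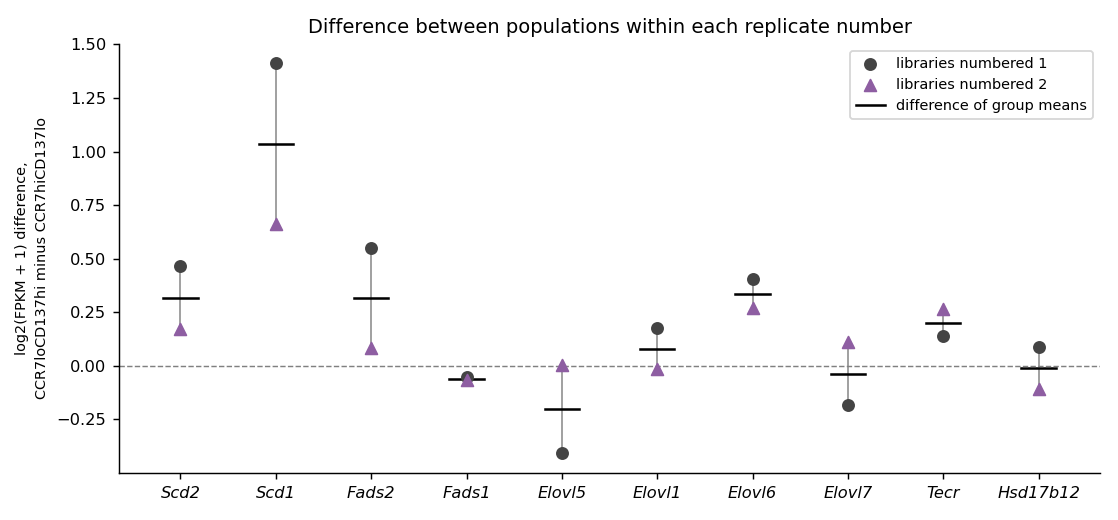
Difference of log2(FPKM + 1), CCR7loCD137hi minus CCR7hiCD137lo, for each gene within the libraries numbered 1 (circles) and numbered 2 (triangles), with a bar at the difference of the group means. Scd1, Scd2, Fads2, Elovl6 and Tecr have both points above 0, and the points of Scd1 are at 1.41 and 0.66.

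The replicate numbers separated these genes where the populations did not. Both libraries numbered 2 lay above both numbered 1 for 6 of the 9 genes tested, Scd1, Scd2, Fads1, Fads2, Elovl6 and Tecr, against 30.6% of all genes tested. Both lay below for 2, Elovl1 and Hsd17b12, against 19.8%. Elovl5 alone of the 9 overlapped, and the untested Elovl7 was also higher in both libraries numbered 2. Compared within each population, the same 6 genes were higher in the library numbered 2 both times, against 44.7% of all genes tested, and the same 2 were lower, against 29.4%. Scd1 in replicate 2 was 1.95 times its level in replicate 1 in CCR7loCD137hi and 3.41 times in CCR7hiCD137lo. For Scd2 the ratios were 1.52 and 1.87, and for Fads2 1.41 and 1.97, so each of the 3 had the larger ratio in CCR7hiCD137lo. The median difference of replicate 2 minus replicate 1 was 0.32 on log2(FPKM + 1) over the 9 genes and 0.06 over all genes tested. The mean difference between numbers was larger in size than that between populations for every gene of the set but Elovl5. The share of all genes tested with this order was not counted, so it is not read as a trait of the set. Over all genes tested, the median absolute difference between replicates was 0.239 in CCR7loCD137hi and 0.190 in CCR7hiCD137lo. Between populations it was 0.177 in the libraries numbered 1 and 0.185 in those numbered 2, so both medians between replicates were somewhat larger. These medians do not give the share of genes with that order. What the numbers stand for is not given in the labels. Depth also differed between the numbers within each population, and between the populations, as given above. Its part in this pattern was not tested.

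**Figure D4:**
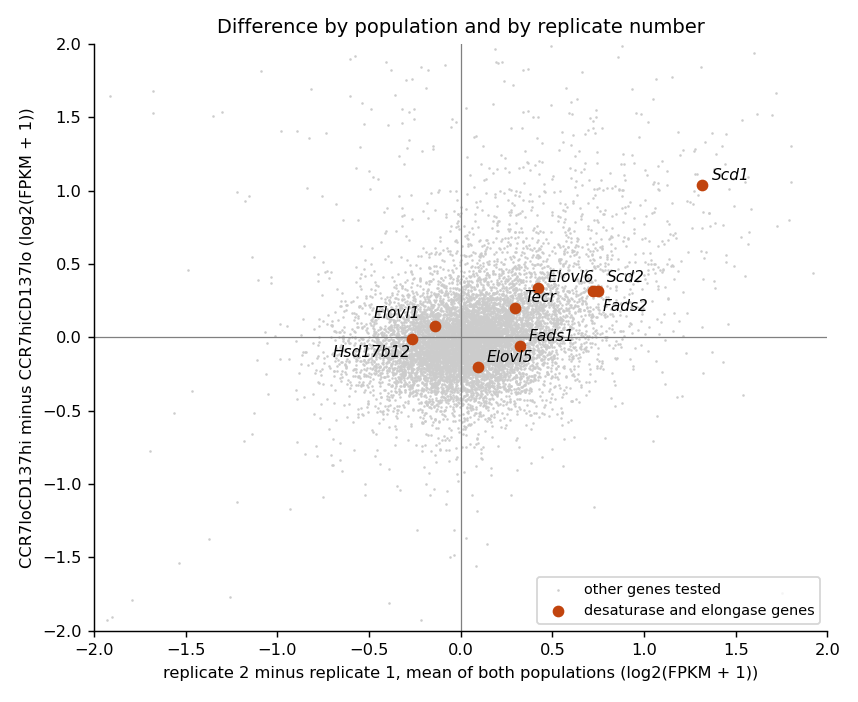
Difference between the populations (vertical axis) against the difference between replicate numbers averaged over both populations (horizontal axis), in log2(FPKM + 1), for 10362 genes tested, the 9 desaturase and elongase genes in colour and the others in grey, with 134 genes outside the plotted range left out. Scd1 lies at 1.32 horizontally and 1.04 vertically, and Scd2 and Fads2 lie nearly on each other at 0.75 and 0.72 horizontally and 0.32 vertically.

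A ratio of 2 genes within a library does not depend on the scaling of that library. Scd1 stood at 0.131 and 0.168 times the level of Scd2 in CCR7loCD137hi replicates 1 and 2 and at 0.0650 and 0.119 times in CCR7hiCD137lo replicates 1 and 2. The ratio was thus higher in both CCR7loCD137hi libraries, and also higher in the libraries numbered 2 of each population. Reads that fit both Scd1 and Scd2 may enter this ratio, and their part was not tested. Elovl6 stood at 0.478 and 0.731 times the level of Elovl1 in CCR7loCD137hi and at 0.405 and 0.595 times in CCR7hiCD137lo, and here the populations overlapped. Fads2 stood at 1.95 and 2.20 times the level of Fads1 in CCR7loCD137hi and at 1.27 and 1.98 times in CCR7hiCD137lo, again with overlap. Scd2 stood at 3.77 and 5.64 times the palmitate synthase gene Fasn in CCR7loCD137hi and at 2.97 and 4.61 times in CCR7hiCD137lo. Elovl5 over Elovl1 was 1.11 and 1.61 in CCR7loCD137hi and 1.67 and 1.59 in CCR7hiCD137lo. Both pairs overlapped, so Scd1 over Scd2 was the only pair computed without overlap. These pairs were chosen after the values were seen. With 2 libraries a side, the smallest two-sided p an exact permutation test allows is 0.3333.

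For Scd1 and Scd2 the genes with the most similar pattern over the 4 libraries were sought, by the distance between log2(FPKM + 1) values centred on their mean. Nearest to Scd2 were Ubtd1 (distance 0.0277), Dynlt3 (0.0368) and Fdps (0.0370). Fdps, which encodes farnesyl diphosphate synthase of cholesterol synthesis, stood at 162 and 255 FPKM in CCR7loCD137hi replicates 1 and 2 and at 118 and 219 FPKM in CCR7hiCD137lo replicates 1 and 2. It had the same order of libraries as Scd2. Nearest to Scd1 were 4930583H14Rik (0.186), 2900011O08Rik (0.212) and Lamc1 (0.215), the last a laminin chain gene at 10.7 and 17.5 FPKM in CCR7loCD137hi and 3.12 and 11.5 FPKM in CCR7hiCD137lo. With 4 libraries such likeness is a description only.

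Promoter sequences from RefSeq on GRCm38.p6 were at hand for 7 of the 10 genes, and not for Scd1, Scd2 and Fads1. Sterol regulatory element binding proteins (SREBP), known regulators of desaturases and elongases, bind sterol regulatory elements and act together with the CCAAT-binding factor NF-Y, so both motifs were searched on both strands of the 250 bases before each start. The sterol regulatory element core TCACNCCAC was in 0 of the 7 genes and in 1.05% of 32851 such windows. CCAAT was in 4 of the 7, Elovl1, Elovl5, Hsd17b12 and Tecr, and in 33.8% of all windows. The search covered whole windows, but 243 of the 250 bases of Fads2 lay within an annotated exon of the gene. Fads2 was thus hardly searched upstream of its exons. In Hsd17b12, Elovl6 and Elovl5 such bases numbered 55, 31 and 1. Elovl6 and Tecr are shown with Elovl5. The former stood higher in CCR7loCD137hi within each replicate number, though the populations overlapped, and higher in both libraries numbered 2. Elovl5 had no such order. These genes were chosen for display after their values were seen. Capitals mark CCAAT or its reverse complement ATTGG, no matches overlapped, and bases within annotated exons of the gene were left off.
Elovl6, chr3:129532136-129532354, plus strand: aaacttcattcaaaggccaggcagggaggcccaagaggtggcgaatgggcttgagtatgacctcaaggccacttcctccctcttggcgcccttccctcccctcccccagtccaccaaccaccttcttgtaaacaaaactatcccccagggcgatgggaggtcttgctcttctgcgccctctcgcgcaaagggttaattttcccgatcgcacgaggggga
Tecr, chr8:83594492-83594741, minus strand: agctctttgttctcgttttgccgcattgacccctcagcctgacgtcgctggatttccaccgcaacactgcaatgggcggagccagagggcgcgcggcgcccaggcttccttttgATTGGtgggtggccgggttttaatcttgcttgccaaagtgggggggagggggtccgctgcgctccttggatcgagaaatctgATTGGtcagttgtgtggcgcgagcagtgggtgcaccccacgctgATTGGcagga
Elovl5, chr9:77917115-77917363, plus strand: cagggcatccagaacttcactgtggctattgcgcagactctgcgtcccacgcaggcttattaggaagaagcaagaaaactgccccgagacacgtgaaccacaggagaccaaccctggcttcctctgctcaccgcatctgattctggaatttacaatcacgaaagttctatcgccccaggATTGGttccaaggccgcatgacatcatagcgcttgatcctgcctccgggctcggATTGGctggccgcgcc
The matches in Tecr begin 136, 54 and 10 bases before the start and those in Elovl5 71 and 17 bases before it, while Elovl6 has none. A match is a description of the letters and not a binding site.

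Of 9 other desaturases and elongases, 4 reached the filter of 1 FPKM, Scd3, Scd4, Degs1 and Degs2. Fads3, Fads6, Elovl2, Elovl3 and Elovl4 did not. None of the 4 was called by limma or had an unadjusted p under 0.05, and their median log2 fold change was 0.04. It turned to −0.05 with quantile normalization, to −0.03 without CCR7loCD137hi replicate 2 and to −0.17 without CCR7hiCD137lo replicate 1. Scd4 stood at 1.58 and 2.12 FPKM in CCR7loCD137hi and at 1.13 and 2.29 FPKM in CCR7hiCD137lo. Scd3, a further stearoyl-CoA desaturase, had the same order of libraries as Scd2 at a much lower level. It stood at 4.94 and 8.03 FPKM in CCR7loCD137hi and at 3.32 and 7.504 FPKM in CCR7hiCD137lo. Its coding sequence was 91.5% identical to that of Scd1, with a longest identical run of 185 nt. Against Scd2 the identity was 88.3% and the longest run 125 nt. Reads that fit Scd3 and the far more abundant Scd1 or Scd2 may enter its values and their order, and their part was not tested. Degs1, a desaturase of ceramide synthesis, varied little, at 56.8 and 53.1 FPKM in CCR7loCD137hi and 55.6 and 56.1 FPKM in CCR7hiCD137lo. Degs2, which hydroxylates sphingolipids, stood at 3.55 and 3.497 FPKM in CCR7loCD137hi, below the 5.95 and 3.91 FPKM of CCR7hiCD137lo (log2 fold change −0.37, SE 0.226, limma adjusted p = 0.747).

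Of 9 genes for the dehydratase step, for a further enoyl-CoA reductase and for the cytochrome b5 system that passes electrons to desaturases, 7 were tested and none was called by limma or had an unadjusted p under 0.05. Their median log2 fold change was 0.11, and it turned to −0.02 with quantile normalization. Cyb5, the older symbol of Cyb5a, which encodes cytochrome b5, stood at 199 and 232 FPKM in CCR7loCD137hi, above the 157 and 191 FPKM of CCR7hiCD137lo (log2 fold change 0.31, SE 0.159, limma adjusted p = 0.718). Cyb5b, its mitochondrial relative, stood at 56.9 and 46.04 FPKM in CCR7loCD137hi and at 53.5 and 54.3 FPKM in CCR7hiCD137lo. Cyb5r3, a cytochrome b5 reductase, stood at 25.3 and 29.8 FPKM in CCR7loCD137hi and at 20.3 and 30.3 FPKM in CCR7hiCD137lo, with the populations overlapping.

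Of 12 regulators listed, which include transcription factors and also proteins that act on SREBP, 9 were tested. None was called by limma or had an unadjusted p under 0.05, and the median log2 fold change was −0.02. It turned to 0.02 without CCR7loCD137hi replicate 1 and to 0.05 without CCR7hiCD137lo replicate 2. Srebf1, which encodes the SREBP form that drives fatty acid synthesis, stood at 43.3 and 45.3 FPKM in CCR7loCD137hi replicates 1 and 2 and at 44.1 and 45.9 FPKM in CCR7hiCD137lo replicates 1 and 2. It varied by 1.06-fold over the libraries, less than any of the 10 genes of the set. Srebf2, whose product drives cholesterol synthesis, stood at 55.3 and 82.0 FPKM in CCR7loCD137hi and at 54.7 and 84.2 FPKM in CCR7hiCD137lo. Insig1, which holds SREBP in the endoplasmic reticulum and is itself a target of it, stood at 44.5 and 62.2 FPKM in CCR7loCD137hi and at 41.0 and 63.8 FPKM in CCR7hiCD137lo. Srebf2 and Insig1 were thus higher in the libraries numbered 2 and nearly equal between populations of the same number. Insig2, chosen after its values were seen, stood at 10.8 and 16.1 FPKM in CCR7loCD137hi, above the 7.43 and 9.43 FPKM of CCR7hiCD137lo (log2 fold change 0.60, SE 0.241, limma adjusted p = 0.637).

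Genes upstream and downstream of these enzymes also gave no call. Of 8 genes that supply malonyl-CoA and palmitate, 7 were tested and limma called none. Their median log2 fold change was 0.14, and it was −0.01 without CCR7loCD137hi replicate 2, −0.0041 without CCR7hiCD137lo replicate 1, 0.38 without CCR7loCD137hi replicate 1 and 0.45 without CCR7hiCD137lo replicate 2. At an unadjusted p under 0.05 there were 2, Acaca and Me1, both higher in CCR7loCD137hi. Acaca, which encodes the carboxylase that makes malonyl-CoA for synthesis and elongation, stood at 10.7 and 9.47 FPKM in CCR7loCD137hi and at 3.71 and 3.26 FPKM in CCR7hiCD137lo (limma adjusted p = 0.216). Me1, which encodes an enzyme that makes NADPH and was named after its values were seen, stood at 7.71 and 9.30 FPKM against 0.111 and 0.828 FPKM (limma adjusted p = 0.213). Fasn, the palmitate synthase, stood at 73.3 and 74.6 FPKM in CCR7loCD137hi and at 67.4 and 81.0 FPKM in CCR7hiCD137lo. Slc25a1, the citrate carrier, stood at 41.4 and 67.2 FPKM in CCR7loCD137hi and at 32.2 and 59.4 FPKM in CCR7hiCD137lo, the order of libraries of Scd2. Acly, which splits citrate, had the same order, at 111 and 153 FPKM in CCR7loCD137hi and 95.1 and 146 FPKM in CCR7hiCD137lo.

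Of 15 acyl-CoA synthetases, lysophospholipid acyltransferases and ceramide synthases, which use the products, 13 were tested. None was called by limma or had an unadjusted p under 0.05, and the median log2 fold change was 0.04. Acsl5, an acyl-CoA synthetase, stood at 86.6 and 71.2 FPKM in CCR7loCD137hi and at 104 and 82.1 FPKM in CCR7hiCD137lo. Lass2, the older symbol of the ceramide synthase gene Cers2, which uses very long chains such as those of Elovl1, stood at 58.7 and 53.8 FPKM in CCR7loCD137hi and at 58.2 and 52.6 FPKM in CCR7hiCD137lo. Lass5, now Cers5, stood at 40.9 and 37.5 FPKM in CCR7loCD137hi and at 43.8 and 37.9 FPKM in CCR7hiCD137lo. These 3 were lower in both libraries numbered 2. Over the 13 genes tested, 6 lay wholly higher in those libraries and 5 wholly lower, against 30.6% and 19.8% of all genes tested. The median difference of replicate 2 minus replicate 1 on log2(FPKM + 1) was 0.18 over the 13 genes and 0.06 over all genes tested. The median log2 fold change between the populations turned to −0.03 without CCR7loCD137hi replicate 2 and to −0.06 without CCR7hiCD137lo replicate 1.

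**Figure D5:**
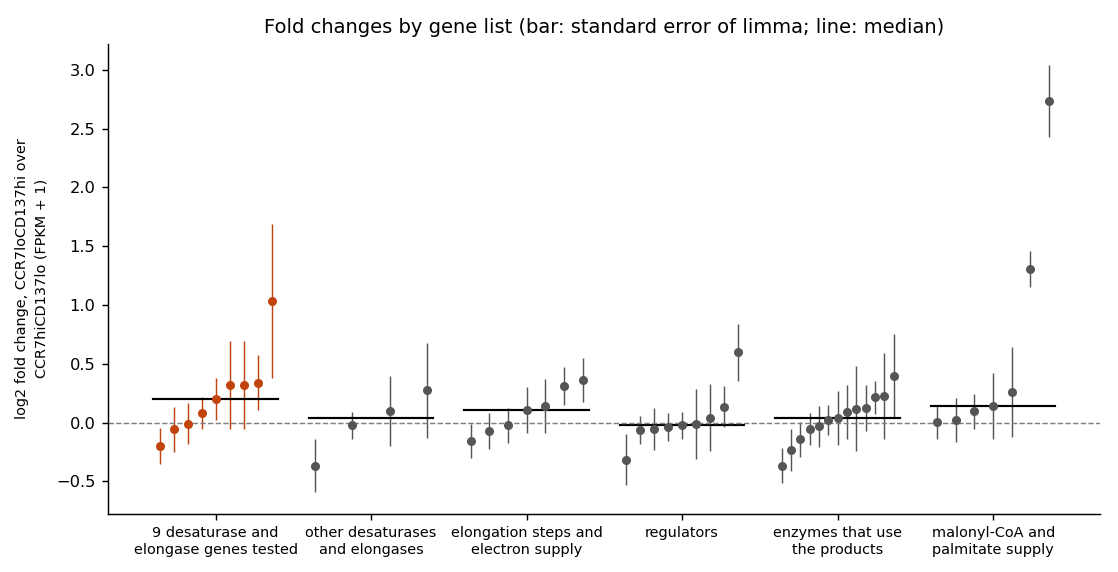
Log2 fold change of each tested gene, CCR7loCD137hi over CCR7hiCD137lo on log2(FPKM + 1), with the standard error of limma as a bar and the median of each list as a line. The 9 desaturase and elongase genes tested have a median of 0.20 and the regulators one of −0.02, and the separate points above 1 in the list of malonyl-CoA and palmitate supply are Acaca and Me1.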

How the data were processed

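Per the file headers, each library's deposited table is Cufflinks gene output with 1 FPKM value per gene, made by the authors. RNA was isolated with TRIzol and converted to libraries with the TruSeq Stranded mRNA kit, per the labels' protocols. The submitters' processing notes name Bowtie 0.12.8, TopHat 1.3.2, Cufflinks 2.0.2 and mm10 without saying what each did. The sources used here give no annotation, filter or scaling between libraries.

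Each table held 23746 entries for 23284 symbols, and for repeated symbols the entry with the highest mean was kept. Starts are printed with 1 added to the file's value, because 11544 file starts fell 1 short of RefSeq and 694 equalled it. Depth was estimated from low values: 74.0% to 75.8% of the ratios between libraries among values under 0.3 FPKM fell within 0.002, in natural log, of ratios of whole fragments, where chance gives 2.83% to 3.26%. The absolute scale rests on 926 single-exon genes and on fragments taken to be 200 nt long, so it is approximate. Fragment numbers give counting error only: 3 fragments on 1 kb are worth 0.258 and 0.474 FPKM in CCR7loCD137hi replicates 1 and 2, and 0.145 and 0.230 FPKM in CCR7hiCD137lo replicates 1 and 2.

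Groups and replicate numbers came from the sample titles. Genes with a mean of at least 1 FPKM were tested on log2(FPKM + 1), which understates changes of low genes. The test was limma 3.58.1 in R 4.3.3, two-sided, with moderated variances and a trend, 2 residual and 2.54 prior degrees of freedom, and Benjamini-Hochberg adjustment over all genes tested at 0.05. The same fit was also run on simulated data, with noise drawn independently for each library, which need not hold for these libraries. Coding sequences, shared windows and exon overlaps used GENCODE M21, and promoters RefSeq, both on GRCm38. Other steps ran in Python 3.11.15 (numpy 2.4.6, pandas 2.3.3) and plots in matplotlib 3.10.9. The members and lists were chosen with earlier results of these data known. The text names the 10 members, Ccr7, Tnfrsf9, Acaca, Fasn and Srebf1, in each list the called genes or else the 3 most expressed, and the 3 nearest patterns of Scd1 and Scd2. Beyond this rule, Scd4, Cdc20, the untested genes of a list and the marker genes are named for completeness, and Insig2 and Me1 after their values were seen. Alternatives were no filter, a pseudocount of 0.1, quantile normalization, no variance trend, a replicate block and leaving out each library.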

Additional observations from a re-analysis of the deposited data

How the results depend on the processing

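The number of desaturase and elongase genes called stayed at 0 under every alternative run. Over all genes, limma called 6, against 1 with no filter on low values, 2 with quantile normalization, 2 without a variance trend, 8 with a pseudocount of 0.1 and 12 to 30 when 1 library was left out. Same-numbered libraries of the populations deviated together (r = 0.21 across 10496 genes), but nothing in the labels says that a number marks a shared culture. With the replicate number as a block limma called 42 genes and again 0 members, with adjusted p = 0.126 for Scd1, 0.170 for Elovl6 and 0.201 for Scd2. These 3 had an unadjusted p under 0.05 with the block, where 21.7% of all genes did, against 0 members and 8.13% without it. Fits that leave out 1 library leave a lone sample in its group, assumed to vary like the others, and hold the numbers unequally. In them the log2 fold change ran from −0.13 to 0.77 for Scd2, −0.16 to 0.80 for Fads2, −0.22 to 0.11 for Fads1, −0.038 to 0.20 for Elovl1, −0.19 to 0.17 for Hsd17b12, 0.19 to 1.88 for Scd1, 0.093 to 0.58 for Elovl6, 0.022 to 0.38 for Tecr and −0.35 to −0.053 for Elovl5, so the first 5 changed sign and the other 4 changed in size by over 1.5 times. The other alternatives turned the sign of none of the 9 genes tested. Depth limits Elovl7, which rested on 12 to 34 fragments a library.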
